A study of Mus musculus with 4 samples.

Results

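Growing oocytes from which the gene Dcaf13 had been deleted were compared with control oocytes of the same age by RNA sequencing. Members of the comparison were the genes that reached 5 FPKM in either of the growing libraries. There were 8010 such genes of 23235 in the table, measured in 2 of the 4 libraries of the series. FPKM is the number of sequenced fragments of a gene, divided by the length of its transcript and by the size of the library. The control library (growing control) came from mice with floxed Dcaf13 alleles, Dcaf13fl/fl, on a C57B6 background, at an age of 13.5 to 14.5 days. The deletion library (growing deletion) came from mice of that age and background that carried the same floxed alleles together with Gdf9-Cre, in which the promoter of the oocyte gene Gdf9 drives Cre recombinase. A library of fully grown oocytes of each genotype, taken at about 23 days and 48 h after 5 IU of PMSG, a gonadotropin that stimulates follicle growth, is used below as a second pair that shares no library with the first. Every group consisted of 1 library of 10 pooled oocytes, so there is no estimate of error between animals or between libraries, and no test was run.

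DCAF13 is a nucleolar WD40 repeat protein. It takes part in assembly of the small ribosomal subunit, in the large complex on nascent ribosomal RNA called the small subunit processome, and it also recruits substrates to CRL4, a ubiquitin ligase built on the cullin CUL4. Growing oocytes build up the ribosomes and the stored messenger RNAs that the egg and early embryo use later, before transcription is silenced at full growth. Cre driven by the Gdf9 promoter is active in oocytes from the earliest stages of follicle growth and spares the surrounding granulosa cells, which keep their floxed alleles.

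The 4 libraries were alike in their gross properties. Summed FPKM lay between 649397 and 678437, and the number of genes at 1 FPKM or more between 10469 and 11048. Of 18 oocyte markers, 17 reached the minimum, and the median over all 18 was 1221 and 1210.3 FPKM in the growing control and deletion libraries and 960.1 and 1040.4 FPKM in the fully grown ones. Changes of these 17 between the growing libraries ran from -0.39 (H1foo, the oocyte linker histone) to 0.51 (Figla, a transcription factor of early oocytes), where a change is the difference deletion minus control in log2(FPKM + 1). Sohlh1, a transcription factor of oocytes in primordial follicles, was the marker below the minimum, at 0.211 and 2.29 FPKM in the growing libraries. Both groups thus showed the markers of their label, but only under the matching of symbols to values described next. That matching was judged partly by these same markers, so they are no separate check of the label. Values were read after the gene symbols of the deposited table had been matched to its value rows again, since symbols and values ran in different sort orders, and this matching is an inference from the values. The oocyte markers had a median of 1216 FPKM over the growing libraries after matching and 1.63 as deposited, and 8 genes of chromosome Y summed to 0.121 and 88.8 FPKM.

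Dcaf13 itself, on the plus strand of chromosome 15 at 38944420 to 38978401 (mm9), was lower in the deletion libraries. It stood at 96.1 FPKM in growing control and 38.9 in growing deletion, and at 160.2 and 64.0 FPKM in the fully grown pair. Both deletion values lay below both control values. The growing deletion library held 40.5% of its control, a change of -1.28. A value over the whole gene does not show how much of the floxed part was left. In pooled oocytes, fewer cells with the transcript and less transcript per cell cannot be told apart, for this gene and for those below.

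Most genes differed little between the growing libraries. Genes were called by a rule of size, a change of at least 1 in log2(FPKM + 1), which compares 2 libraries and is not a test. By this rule 210 genes were higher (2.62% of those at the minimum) and 201 were lower (2.51%), so that 5.13% were called in all. Among all 8010 genes 4685 (58.5%) lay above control, the median change was 0.08, the quartiles were -0.17 and 0.32, and 4005 genes (50%) lay within 0.25 of the median. The 5th and 95th percentiles were -0.70 and 0.78. Higher genes had a median of 3.55 FPKM in growing control and 11.7 in growing deletion. Lower genes went from a median of 12.2 to 3.71 FPKM. Of the higher genes 10 were listed at 0 in control, and of the lower genes 3 were listed at 0 in the deletion. At the edges of the rules, 1810049H13Rik at 5.01 FPKM was just inside the minimum and Cog7 at 4.998 just outside. Car11 with a change of 0.997 and 2210403K04Rik with -0.999 narrowly missed the rule of size, while 9430015G10Rik (1.003) and Schip1 (-1.003) narrowly met it.

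**Figure D1:**
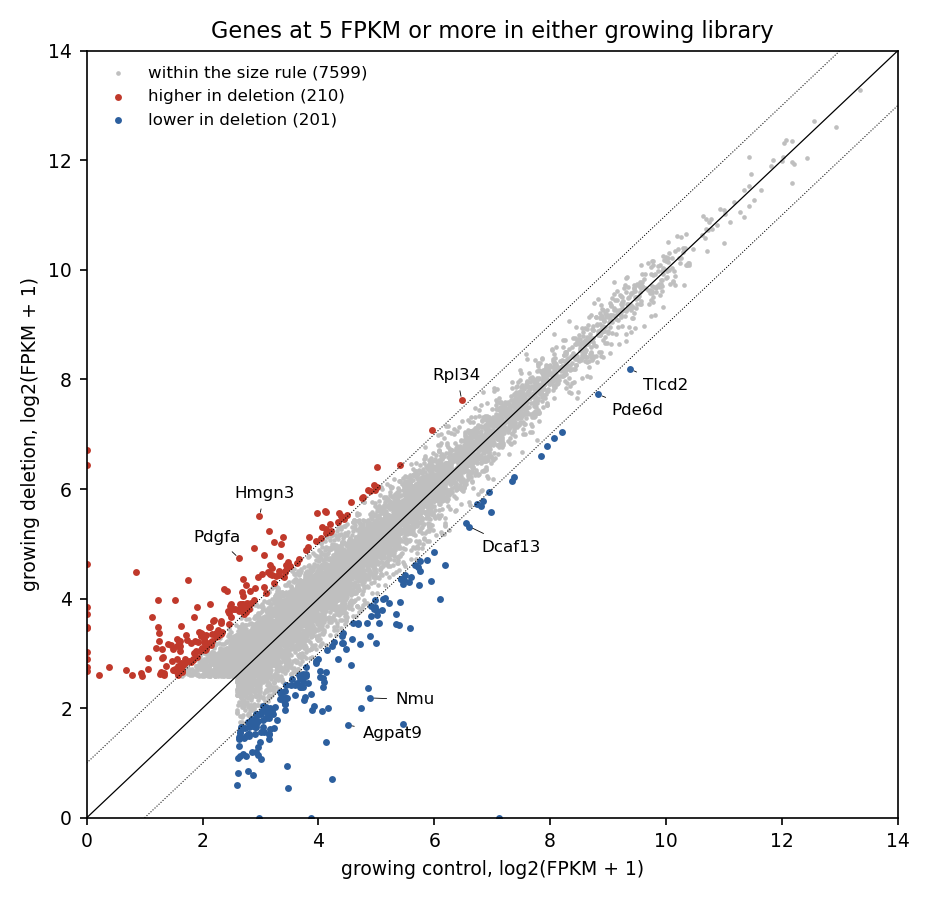
Each point is 1 of 8010 genes, placed by log2(FPKM + 1) in the growing control library (x axis) and the growing deletion library (y axis), with the line of equality solid and the size rule dotted. The 210 higher (red) and 201 lower (blue) genes lie mostly at low levels, while Rpl34, Tlcd2 and Pde6d are called at high levels.

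The 15 largest changes in each direction were taken among genes at 20 FPKM or more in either growing library. Predicted, clone-named and small RNA genes and pseudogenes were left out. Genes outside this filter could change more, such as Scarna3a (4.63) and Slc6a15 (-2.93). Within it, the genes with the widest differences upwards ranged from a chromatin protein to a growth factor and a keratin. Hmgn3, which encodes a nucleosome-binding high mobility group protein (minus strand of chromosome 9, 83003549 to 83040214, mm9), stood at 6.90 FPKM in growing control and 44.3 in growing deletion, a change of 2.52. Its fully grown values were 5.70 in control and 9.81 in deletion, so the growing deletion library alone was high. Pdgfa, the A chain of platelet-derived growth factor (minus strand of chromosome 5, 139452929 to 139470907, mm9), was at 5.19 and 25.6 FPKM in the growing pair, a change of 2.11, and at 2.81 and 3.65 in the fully grown pair. Baiap2l2, whose product binds curved membranes through an I-BAR domain, stood at 7.83 and 36.6 FPKM, and at 4.68 and 13.6 in fully grown oocytes. Krt73, a keratin gene of the hair follicle, was at 6.42 and 29.4 FPKM, and at 6.76 and 20.8 in fully grown oocytes. For both of these genes the deletion library was the higher one at either stage, and both were past the rule at either stage.

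The other 11 of the 15 genes with the largest positive changes under this filter lay between 21.4 and 83.5 FPKM in growing deletion. Vrk3, a member of the vaccinia-related kinase family, stood at 8.41 and 31.7 FPKM in the growing pair, and at 8.35 and 7.32 in the fully grown pair. Cisd3, an iron-sulfur protein of mitochondria, was at 9.47 and 34.1 FPKM, with 10.7 and 17.9 in fully grown oocytes. Isyna1, the synthase that makes inositol phosphate from glucose 6-phosphate, was at 14.7 and 46.1 FPKM, with 6.78 and 10.7 in fully grown oocytes. All 3 were highest in the growing deletion library. Gstp1, a glutathione S-transferase, was the most abundant of the group at 31.1 and 83.5 FPKM, and at 32.5 and 43.5 in fully grown oocytes. Reads of Gstp1 may be shared with its near-identical neighbour Gstp2. The protease inhibitor gene Cstb (1.47) and Shisa5 (1.46), whose product is a membrane protein of the endoplasmic reticulum, followed, with Tmem160 at 1.63. Rsph9, a component of the radial spoke of cilia, had a change of 1.36, and Izumo4, of the Izumo family known from sperm, 1.43. Gsc, the homeobox gene goosecoid, stood at 8.004 and 23.4 FPKM in the growing pair, and at 4.15 and 2.72 in the fully grown pair. Snapc2, a subunit of a complex that acts in the transcription of small nuclear RNA genes, was at 7.78 and 21.4 FPKM, and at 3.40 and 3.05 in fully grown oocytes. Gsc, Vrk3, Izumo4 and Snapc2 thus lay below control in the fully grown pair.

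Under the same filter, genes with the widest differences downwards included those of lipid synthesis, peptide signalling and calcium binding. Agpat9, an acyltransferase that starts glycerolipid synthesis (plus strand of chromosome 5, 101275248 to 101328121, mm9), stood at 21.8 FPKM in growing control and 2.23 in growing deletion, 10.2% of control and a change of -2.82. In fully grown oocytes it was at 14.3 and 5.07 FPKM, so both deletion libraries lay below both controls. Nmu, which encodes the peptide neuromedin U (minus strand of chromosome 5, 76762520 to 76792802, mm9), was at 28.7 and 3.56 FPKM in the growing pair, a change of -2.70, and at 41.0 and 32.2 in the fully grown pair. Only the growing deletion library was low. Rgn, the gene of regucalcin, which binds calcium, was at 27.8 and 4.18 FPKM, and at 69.9 and 24.6 in fully grown oocytes. Mrap, an accessory protein of melanocortin receptors, was at 60.2 and 19.0 FPKM, and at 43.6 and 18.2 in fully grown oocytes. Both deletion libraries were low for Mrap, and the rule was passed at either stage by Agpat9, Rgn, Mrap and Serpinb12.

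The defensin gene Defb41 stood at 47.1 and 9.99 FPKM in the growing pair and at 36.4 and 46.6 in the fully grown pair. Calr3, a germ cell paralog of the chaperone calreticulin, was at 67.1 and 15.002 FPKM, and at 47.7 and 30.3 in fully grown oocytes. Bmp5, a bone morphogenetic protein, was at 22.7 and 5.91 FPKM, and at 33.5 and 20.1 in fully grown oocytes. The growing deletion library was the lowest of the 4 for each of these. C1qb, a chain of complement component C1q, was at 72.1 and 23.4 FPKM, and at 35.1 and 32.4 in fully grown oocytes, where growing control was the library that stood highest. Pglyrp1, a peptidoglycan recognition protein, was also highest in growing control, at 28.5 and 9.04 FPKM, with 14.4 and 14.6 in fully grown oocytes. The methyl-CpG-binding family member Mbd3l2 (-1.81), the potassium channel gene Kcnn2 (-1.802), the protease inhibitor gene Serpinb12 (-1.62), Ccdc3 (-1.54), Fam162b (-1.4995) and Fam107b (-1.47) complete the 15 genes with the largest negative changes under the filter.

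**Figure D2:**
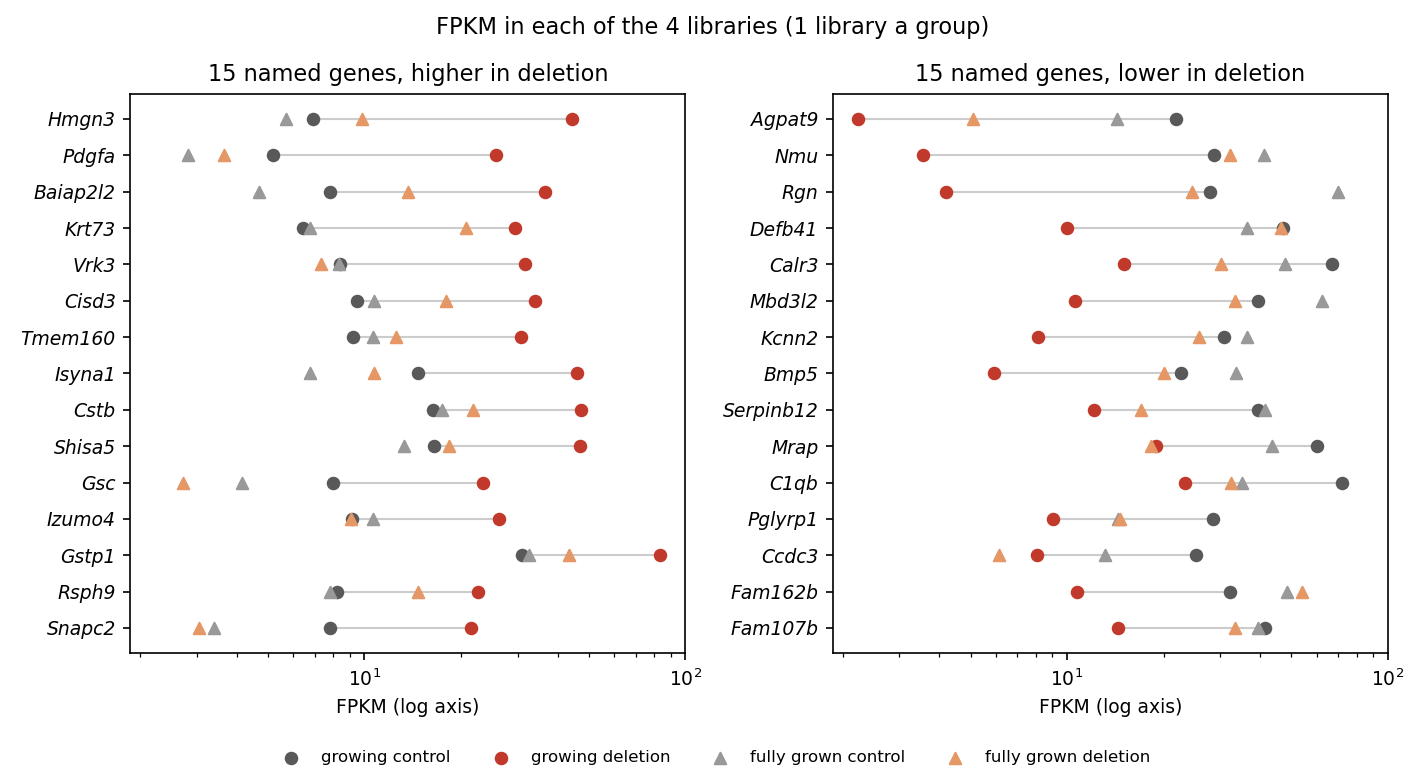
FPKM on a log axis for the 15 named genes with the largest change in each direction among those at 20 FPKM or more in either growing library. Each library has 1 point, and a grey line joins the growing pair (circles, control grey and deletion red, with triangles for the fully grown pair). Growing deletion is the highest of the 4 libraries for all 15 genes on the left, and on the right it is the lowest for all but Mrap and Ccdc3, which are lower still in fully grown deletion.

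Promoters are shown for the first genes in each direction whose symbol had an entry, and for Rpl34, to show starts with many and with few CG dinucleotides. Each sequence is the 250 bases before the transcription start in RefSeq, build GRCm38.p6, written 5' to 3' on the strand of the gene, with CG dinucleotides in capitals. Pdgfa (chromosome 5, minus strand, 138994282 to 138994531) and Krt73 (chromosome 15, minus strand, 101802361 to 101802610) were higher in the deletion, with 19 and 3 CG dinucleotides.
Pdgfa: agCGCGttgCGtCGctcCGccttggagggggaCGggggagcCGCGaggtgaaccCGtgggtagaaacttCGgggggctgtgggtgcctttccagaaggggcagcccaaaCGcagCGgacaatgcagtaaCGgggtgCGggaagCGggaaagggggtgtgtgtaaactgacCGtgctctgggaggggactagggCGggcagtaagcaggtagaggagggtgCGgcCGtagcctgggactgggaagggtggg
Krt73: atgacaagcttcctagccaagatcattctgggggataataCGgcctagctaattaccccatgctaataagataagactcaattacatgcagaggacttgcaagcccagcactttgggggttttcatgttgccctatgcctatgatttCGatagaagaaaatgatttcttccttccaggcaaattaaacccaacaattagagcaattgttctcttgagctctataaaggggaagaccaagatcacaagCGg
Agpat9 (listed by RefSeq as Gpat3, chromosome 5, plus strand, 100845979 to 100846228), Nmu (chromosome 5, minus strand, 76363778 to 76364027) and Defb41 (chromosome 1, minus strand, 18265139 to 18265388) were lower, with 19, 19 and 0.
Agpat9: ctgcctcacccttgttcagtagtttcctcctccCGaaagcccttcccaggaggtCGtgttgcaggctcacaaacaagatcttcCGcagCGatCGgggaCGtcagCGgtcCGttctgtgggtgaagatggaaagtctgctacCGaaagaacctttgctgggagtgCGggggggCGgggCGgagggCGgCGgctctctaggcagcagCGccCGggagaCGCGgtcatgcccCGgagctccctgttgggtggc
Nmu: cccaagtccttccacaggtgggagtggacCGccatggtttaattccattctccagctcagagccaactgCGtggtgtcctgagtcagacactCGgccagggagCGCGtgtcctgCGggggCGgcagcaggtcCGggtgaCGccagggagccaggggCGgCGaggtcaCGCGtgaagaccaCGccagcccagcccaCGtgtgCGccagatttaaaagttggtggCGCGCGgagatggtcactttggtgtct
Defb41: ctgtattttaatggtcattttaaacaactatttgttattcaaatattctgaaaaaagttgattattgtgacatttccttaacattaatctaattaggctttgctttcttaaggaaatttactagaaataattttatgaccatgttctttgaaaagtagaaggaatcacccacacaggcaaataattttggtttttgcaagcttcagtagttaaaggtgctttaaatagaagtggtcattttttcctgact
Rpl34 (chromosome 3, minus strand, 130730399 to 130730648), higher in both deletion libraries, had 27.
Rpl34: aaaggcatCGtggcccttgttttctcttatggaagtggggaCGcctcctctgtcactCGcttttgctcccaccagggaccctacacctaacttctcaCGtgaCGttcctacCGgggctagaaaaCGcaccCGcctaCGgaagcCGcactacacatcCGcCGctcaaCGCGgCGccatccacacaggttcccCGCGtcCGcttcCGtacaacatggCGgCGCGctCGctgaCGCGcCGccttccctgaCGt
Pdgfa, Agpat9, Nmu and Rpl34 had starts rich in CG, while Krt73 and Defb41 did not, so each direction held both kinds.

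Counted over all called genes, starts rich in CG made up a smaller share of the lower than of the higher genes. Of 158 higher genes with an entry, 101 (63.9%) had 10 or more CG dinucleotides in these 250 bases, against 52 of 146 lower genes (35.6%) and 4943 of 6496 genes at the minimum (76.1%). Over all 27025 promoters of the RefSeq table the share was 38.2%. The order was the same at either level of expression. Among genes of 5 to 20 FPKM, 61.1% of higher, 30.2% of lower and 76.7% of uncalled genes had such starts, and among genes of 20 FPKM or more 70%, 46% and 77.9%. The motif CCGGAAG, searched on both strands and known as a binding sequence of ETS family factors, lay in 14.6% of higher, 2.05% of lower (3 genes) and 16.1% of all genes at the minimum, and in 7.05% of all promoters. The E-box CANNTG lay in 63.9%, 72.6% and 57.2% of the same groups of genes, and in 66.0% of all promoters. TAATTG, searched on both strands as well, lay in 2.53%, 6.85% and 4.62%, and in 7.34% of all promoters. TATAAA, searched on the strand of the gene, lay in 7.59%, 8.90% and 3.93%, and in 8.12% of all promoters. A match is a description of these letters and not a bound site.

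The called genes were examined in the fully grown pair, which shares no library with the growing pair. Of the 210 higher genes 161 (76.7%) lay above control there, with a median change of 0.41 against 1.24 in growing oocytes. Of the 201 lower genes 173 (86.1%) lay below control, with a median of -0.44 against -1.25. Over all 8010 genes 55.3% lay above control there and the median was 0.04. Both pairs had a like trend of the change with transcript GC content, described below, and its part in these shares was not tested. The rule of size was passed in the fully grown pair by 2.17% of 7413 genes, 1.08% upwards and 1.09% downwards. Of the higher genes 17 were also higher there, 8.10% of the growing list and 21.25% of the fully grown list. Of the lower genes 24 were also lower there, 11.9% and 29.6% of the lists.

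The levels of the called genes were compared across the libraries. For higher genes the medians were 3.55, 11.7, 3.23 and 4.59 FPKM in the libraries taken as growing control and deletion, then fully grown control and deletion. For lower genes they were 12.2, 3.71, 11.6 and 8.17 FPKM. Growing deletion was the highest of the 4 libraries for 193 of the 210 higher genes and the lowest for 167 of the 201 lower genes. These ranks are a description, since the rule itself chose genes by the distance of growing deletion from growing control. Genes past the rule at both stages, picked out here after their values were seen, included the myeloid translocation family members Cbfa2t3 (1.21 in growing and 1.27 in fully grown oocytes) and Runx1t1 (-1.14 and -1.01). Among them were also the transcription factor gene Batf3 (-1.44 and -1.48), the nuclear receptor genes Nr2e3 (1.01 and 1.38) and Rora (-1.46 and -1.05), and Cd200 (-2.51 and -1.39), which encodes a surface glycoprotein.

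Genes of the small subunit processome and of 18S ribosomal RNA maturation, the assembly path of DCAF13, lay slightly above control. Of 52 members at the minimum, Dcaf13 not counted, 40 lay above control and none was past the rule. Their median change was 0.20, against 0.08 over all genes, and 0.16 in the fully grown pair. Changes ran from -0.96 to 0.80. The ends of this range, named here for their values, were Utp23, a factor of early cleavage, at 18.7 and 9.13 FPKM in the growing pair, and Rrp9, a protein of the U3 particle, at 14.8 and 26.5. The abundant members were nearer to control. Emg1, a methyltransferase of 18S RNA, stood at 413.9 and 385 FPKM, Fcf1, an endonuclease-like factor, at 388 and 489.9, and Nhp2l1, a shared protein of small nucleolar and spliceosomal particles, at 218 and 284. Their changes were -0.10, 0.34 and 0.38.

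Large subunit assembly had a like median. Of 46 members 37 lay above control, 1 was higher by the rule and none lower, and the median was 0.23, with 0.15 in fully grown oocytes. The member past the rule was Pwp1, at 5.53 and 13.5 FPKM in the growing pair and 2.63 and 3.16 in the fully grown pair. Npm1, the nucleolar protein nucleophosmin, stood at 747.8 and 878 FPKM, Rsl24d1, a placeholder on the pre-60S particle, at 300.4 and 296, and Eif6, which keeps the subunits apart, at 293 and 268.

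Ribosomal protein genes lay above control nearly throughout. Of 33 small subunit genes 31 were above control, with a median of 0.23 in growing and 0.24 in fully grown oocytes, and none was past the rule. Of 51 large subunit genes 49 were above, with medians of 0.30 and 0.23. Summed over the small subunit list, FPKM was 23594 and 27364 in growing control and deletion, and 26256 and 30537 in the fully grown pair. Over the large subunit list the sums were 32473, 38606, 35752 and 42128 FPKM. In both lists each deletion library exceeded its own control, and growing deletion also exceeded fully grown control. Rps29 stood at 3614 and 3817 FPKM, Rps13 at 1743 and 1938, Rpl41 at 3664 and 4111 and Rpl39 at 1951 and 2200, in growing control and deletion. Rpl34 was the member past the rule. It stood at 88.0 and 195.6 FPKM in growing control and deletion, and at 87.8 and 202.1 in the fully grown pair, so that both deletion libraries were high at nearly the same level and the controls were low. Ribosomal protein genes have many near-identical pseudogenes, and how reads with several matches were counted is not given in the sources used here. After the trend with transcript GC content and length, described below, was removed, the medians were 0.21 and 0.18. CCGGAAG lay in 10 of 25 small subunit promoters with an entry (40%) and in 9 of 39 large subunit promoters (23.1%).

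**Figure D3:**
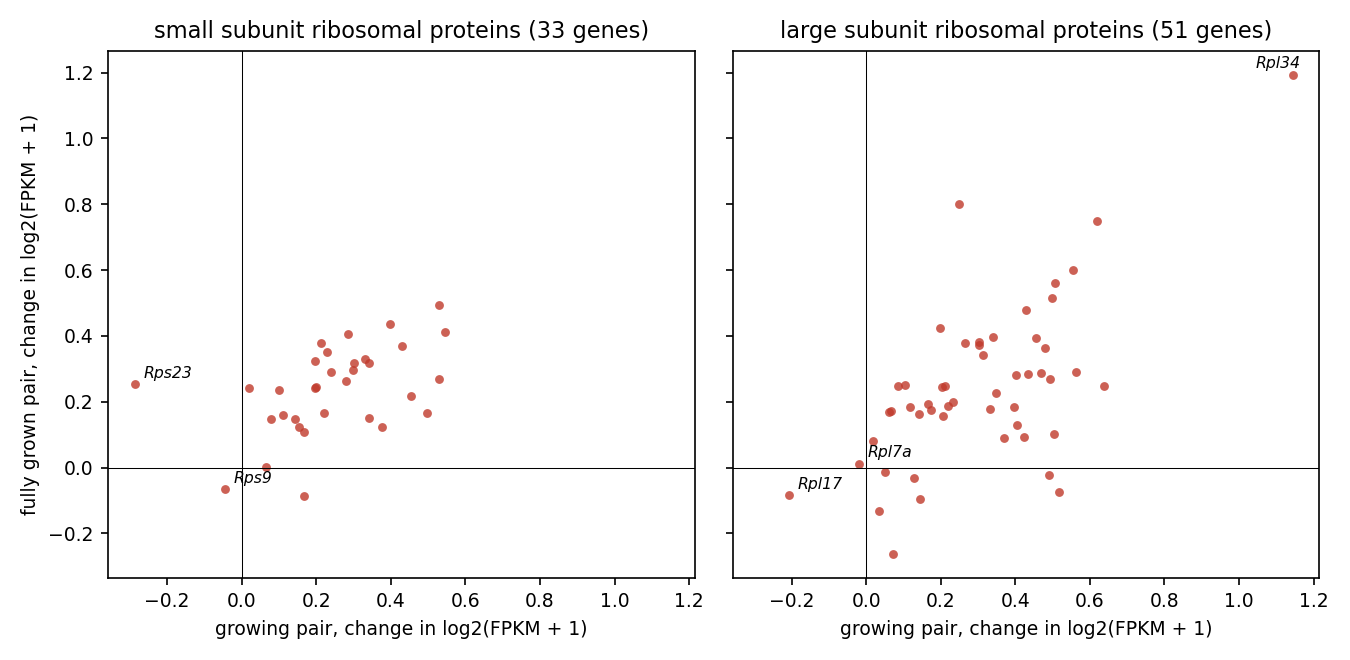
Change in log2(FPKM + 1) of each ribosomal protein gene at the minimum in the growing pair (x axis) and the fully grown pair (y axis), for 33 small and 51 large subunit genes. Most lie above 0 on both axes, and Rpl34 lies apart at 1.14 and 1.19.

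Genes of the RNA polymerases and their factors were mixed. Of 13 members of RNA polymerase I and its factors, 9 lay above control with a median of 0.41, while the median in fully grown oocytes was -0.11. Past the rule were Ubtf, the upstream binding factor of ribosomal DNA, at 5.48 and 13.9 FPKM, and Taf1c, a subunit of its promoter selectivity factor, at 1.54 and 5.11. That is 15.4% called, against 5.13% over all genes. In fully grown oocytes Ubtf was at 1.37 and 1.67 FPKM and Taf1c at 0.456 and 1.30, so growing deletion was the highest library for both. The abundant subunit gene Polr1d was at 571 and 588 FPKM. With a minimum of 20 FPKM, which leaves out 7 of the 13 members, Ubtf and Taf1c among them, the median of the list was -0.11. RNA polymerase III and its factors had 17 of 21 members above control and a median of 0.26. Snapc2 and Snapc4 (1.04) were higher by the rule, which is 9.52% called. RNA polymerase II subunits had 8 of 13 above, a median of 0.10 and none past the rule.

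Genes that charge and use transfer RNA also lay mostly above control, as did 58.5% of all genes. Of 26 aminoacyl-tRNA synthetases 22 were above, with a median of 0.26 and none past the rule. Lars2 (240.4 and 202 FPKM) and Qars (168 and 146 FPKM), both abundant, were among the 4 that were below. Of 60 translation initiation and elongation factors 43 were above with a median of 0.12, and Eif2b5, a subunit of the exchange factor of eIF2, was higher by the rule at 5.47 and 14.0 FPKM. Eef1a1, the elongation factor, stood at 724 and 859.5 FPKM. Among 75 mitochondrial ribosomal proteins 50 were above with a median of 0.14, and none was past the rule. The core spliceosome had 31 of 40 above and a median of 0.22, and the RNA exosome 11 of 16 and 0.12, with none past the rule in either. The abundant splicing factor gene Sf3b5 stood at 536 and 715 FPKM.

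The ubiquitin side of DCAF13 had list medians on either side of the 0.08 of all genes. Of 33 genes of the CRL4 ligase, its DCAF receptors and the COP9 signalosome, Dcaf13 itself not counted, 22 lay above control with a median of 0.13, and none was past the rule. Rbx1, the RING subunit, stood at 229.7 and 216 FPKM, and the signalosome genes Cops3 at 141 and 162 and Cops4 at 238 and 239. The proteasome had 25 of 43 members above control and a median of 0.07. Psmb10, an immunoproteasome subunit, was its member past the rule, at 0.599 and 5.47 FPKM in the growing pair and 1.61 and 1.90 in the fully grown pair.

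Calls among stress genes were 1 member of the unfolded protein list (4.00%) and 1 of the heat shock list (4.35%), against 5.13% over all genes. Of 11 genes of the p53 response and nucleolar stress 7 lay above control with a median of 0.32, none was past the rule, and the median in fully grown oocytes was 0.00. Mdm4, an inhibitor of p53, stood at 483 and 338 FPKM in the growing pair, and at 615 and 421 in the fully grown pair, lower in each deletion library. Bax, which promotes apoptosis, stood at 25.03 and 45.9 FPKM, and at 33.7 and 48.1 in fully grown oocytes, higher in each deletion library. Mdm2 was at 35.8 and 32.4 FPKM. At a minimum of 20 FPKM the median of this list was -0.14. The unfolded protein and integrated stress responses had 14 of 25 above and a median of 0.03, with Xbp1 higher by the rule at 2.14 and 5.34 FPKM. Heat shock proteins and the chaperonin had 19 of 23 above and a median of 0.19, with the chaperonin subunit gene Cct6a higher at 17.4 and 40.4 FPKM, while the chaperone gene Hsp90aa1 stood at 1106 and 880.1. Regulators of apoptosis had 8 of 15 above and a median of 0.08, and the oocyte survival gene Bcl2l10 stood at 3172 and 2829 FPKM. The DNA damage response had 19 of 31 above and a median of 0.06, and its histone gene H2afx was at 192 and 329 FPKM, with 140.0 and 135 in fully grown oocytes. Autophagy and lysosome genes had 19 of 25 above and a median of 0.16. None of these last 3 lists had a member past the rule.

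The mitochondrial and metabolic lists whose medians are given here ran from 0.08 to 0.18, against 0.08 over all genes. Complex I had 30 of 38 members above control with a median of 0.09 and none past the rule, and ATP synthase 10 of 15 with a median of 0.09. Uqcrc1, a core protein of complex III, was higher by the rule at 30.1 and 66.2 FPKM, with 12.3 and 13.6 in fully grown oocytes. In cytochrome c oxidase, Cox8c was higher at 8.60 and 20.4 FPKM, and at 9.85 and 21.4 in fully grown oocytes, and Cox6a2 was lower at 47.5 and 20.02, with 42.2 and 40.6 in fully grown oocytes. Cox8c was thus high in both deletion libraries, and Cox6a2 low in growing deletion alone. Glycolysis had 9 of 11 above and a median of 0.18, with Ldhb, the lactate dehydrogenase of oocytes, at 6047 and 6741 FPKM. Cholesterol synthesis had 10 of 15 above and a median of 0.09, with Acat2 (1.05) and Tm7sf2 (1.01) higher by the rule. Glutathione and antioxidant enzymes had 15 of 20 above and a median of 0.08, and Gstp1, described above, was the member past the rule.

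Solute carriers were called in both directions. Of 107 solute carriers at the minimum 75 lay above control with a median of 0.23, 7 were higher and 6 lower by the rule. That is 12.1% called, against 5.13% over all genes, and 61.7% of these carriers stayed below 20 FPKM in both growing libraries, against 46.5% of all genes. Slc6a15, a carrier of neutral amino acids, stood at 10.1 and 0.452 FPKM in growing control and deletion, and at 11.3 and 7.97 in the fully grown pair. Slc7a2, which carries cationic amino acids, stood at 13.6, 3.77, 9.82 and 7.06 FPKM in the same order. For both the growing deletion library was the lowest. Slc39a8, a zinc carrier, was low in both deletion libraries, at 41.9 and 19.5 FPKM in the growing and 40.8 and 9.39 in the fully grown pair. Slc50a1, a sugar carrier, was higher at 0.710 and 5.08 FPKM, as were Slc16a11 (1.30), Slc25a22 (1.17) and the haem carrier gene Slc48a1 (1.15). The 20 glycerolipid enzymes had 13 members above control and a median of 0.15, and Agpat9, described above, was the only one past the rule, while Agpat2, of the next step of the path, stood at 44.2 and 58.3 FPKM.

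Lists of oocyte genes had medians between -0.15 and 0.00, against 0.08 over all genes. After the trend with transcript GC content and length, described below, was removed, the medians of secreted factors and of transcription regulators were -0.12 and 0.07. Those of maternal effect genes and of messenger RNA storage were then 0.07 and 0.07. Of 14 oocyte-secreted factors and zona pellucida genes 4 lay above control and 10 below, and the median was -0.15. Nmu and Bmp5 were lower by the rule, which is 14.3% called, against 5.13% over all genes. Gdf9 and Zp3 were above control at 2617 and 2815 FPKM and at 4183 and 5080. Zp2 stood at 2845 and 3439 FPKM. Oocyte transcription regulators had 7 of 15 members above control, a median of -0.06 and 6.67% called. Sebox, a maternal homeobox gene, was lower by the rule at 49.6 and 23.5 FPKM, with 55.4 and 38.8 in fully grown oocytes, and Obox2 stood at 1313 and 1090. The subcortical maternal complex and other maternal effect genes were split evenly, with 17 of 34 above, a median of 0.00 and none past the rule. Zbed3 of that complex stood at 4292 and 5271 FPKM, H1foo at 5555 and 4236, and Dppa3, which protects maternal DNA methylation, at 4762 and 3908. Genes of messenger RNA storage and decay had 18 of 37 above, a median of -0.01 and none past the rule, and Btg4, an adaptor of messenger RNA decay, stood at 1668 and 1299 FPKM in the growing and 2349 and 1621 in the fully grown pair.

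Genes of communication between oocyte and follicle lay evenly around control. Of 26 members of the follicle list 13 lay above control with a median of -0.0017, and 3 (11.5%, against 5.13% over all genes) were past the rule. Pdgfa was higher by the rule. Cdh2, the adhesion protein N-cadherin, was lower at 10.02 and 3.55 FPKM, with 6.46 and 4.97 in fully grown oocytes, and Bmpr2, a receptor of bone morphogenetic proteins, at 7.92 and 3.03, with 10.05 and 6.60. The Notch ligand gene Jag1 was at 182 and 101 FPKM in the growing and 273 and 182 in the fully grown pair, below control at either stage without passing the rule. Gja4, the gap junction protein through which oocytes couple to granulosa cells, stood at 464 and 449 FPKM. The pathway of cyclic AMP that holds meiotic arrest had 10 of 13 members above, a median of 0.10 and none past the rule.

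Cell cycle genes were centred on control, with 26 of 50 above and a median of 0.00. Ccne1, cyclin E1, was higher by the rule at 8.02 and 20.8 FPKM, and Ccnd3 at 6.03 and 13.9. Ccnd2, another D-type cyclin, was lower at 5.06 and 0.514 FPKM, and at 2.13 and 2.57 in fully grown oocytes. The abundant genes Pttg1, which encodes securin, at 4085 and 4046 FPKM, and Mos, the kinase upstream of MAP kinase in eggs, at 850.1 and 973, were near control in the growing pair. Ccnb1, cyclin B1, stood at 456 and 362 FPKM in the growing and 481 and 309 in the fully grown pair, below control at either stage without passing the rule. The spindle list had 15 of 31 above and a median of -0.09. Its members past the rule, Haus7, an augmin subunit, at 15.2 and 5.44 FPKM, and the tubulin gene Tuba3b at 30.2 and 13.04, were both lower in growing deletion. Of 21 genes of synapsis, cohesion and recombination 10 were above with a median of -0.03, and Mei4, needed for meiotic DNA breaks, was lower at 6.76 and 1.22 FPKM, with 11.5 and 8.17 in fully grown oocytes.

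Among chromatin genes the share called differed between lists, against 5.13% over all genes. Replication-dependent histones had 12 members at the minimum, 7 above control, 4 higher and 1 lower, with a median of 0.23 and a fully grown median of -0.39. That is 41.7% called, and 66.7% of these 12 stayed below 20 FPKM in both growing libraries, against 46.5% of all genes. Hist1h1a stood at 17.6 and 36.5 FPKM in the growing and 28.4 and 59.9 in the fully grown pair, while Hist1h4h stood at 15.6 and 33.4 and at 19.4 and 12.2. The deletion library was thus the higher one at either stage for Hist1h1a and in the growing pair alone for Hist1h4h. Hist1h1c (1.06) and Hist3h2a (1.08) were higher too, and Hist2h2bb (-1.15) was lower. The copies of these genes are near-identical, most of their transcripts lack a poly(A) tail, and the libraries were primed on poly(A). Histone variants and chaperones had 16 of 23 above, a median of 0.18 and none past the rule. Prmt5, an arginine methyltransferase, was higher at 3.35 and 14.0 FPKM among 30 histone-modifying enzymes with a median of 0.06 and 3.33% called. Of 12 genes of DNA methylation 16.7% were called, Mbd1 higher at 2.86 and 7.27 FPKM and Mbd3l2 lower at 39.5 and 10.6. The methyltransferase gene Dnmt1 stood at 470 and 574 FPKM. Small RNA genes had Gtsf1l (1.8002) and Tdrd7 (1.06) higher among 22 members, which is 9.09% called. Among 135 zinc finger genes named Zfp, 64 were above control with a median of -0.02, and 2.22% were called. Of these 2 were higher, Zfp428 (1.10) and Zfp771 (1.13), and 1, Zfp708 (-1.36), was lower. Of 3 genes of the 2-cell stage at the minimum, Sp110 was at 494 and 405 FPKM and Arg2 at 245 and 185.

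**Figure D4:**
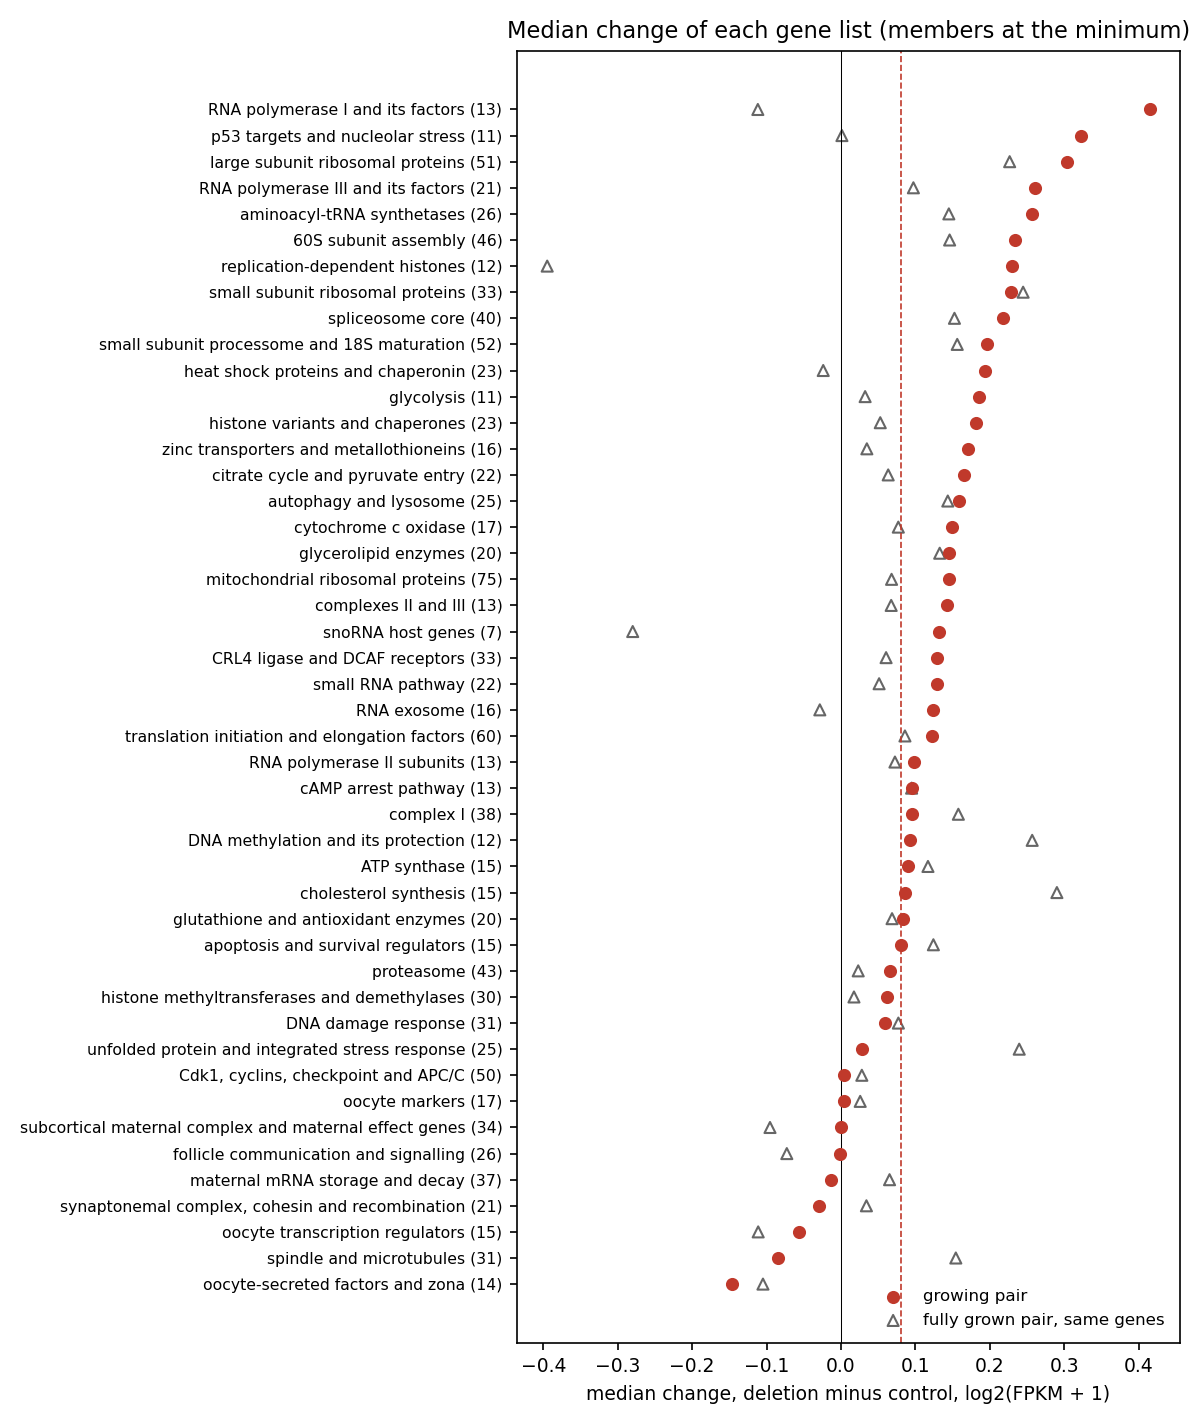
Median change in log2(FPKM + 1) of each list with 5 or more members at the minimum, in the growing pair (red circles) and, for the same genes, in the fully grown pair (open triangles), with the number of members in parentheses and the median of all genes at 0.08 dashed. RNA polymerase I factors (0.41), the p53 list (0.32) and large subunit ribosomal proteins (0.30) are the 3 highest of the lists drawn, which leave out small nucleolar RNA genes, solute carriers, Zfp genes and markers of other cells, and oocyte-secreted factors (-0.15) are the lowest.

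Calls were rare among abundant genes. Of 1933 genes at 5 to 10 FPKM in their higher library 92 were higher and 88 lower, and of 1282 genes at 100 FPKM or more 3 were higher and 14 lower. Named here for their level, Tlcd2, a TLC domain membrane protein, stood at 667 and 291 FPKM in growing control and deletion, and at 441 and 393 in the fully grown pair. Pde6d, which carries prenylated proteins, stood at 455, 211, 539 and 269.6 FPKM in the same order, low in both deletion libraries. The trafficking gene Trappc9 (294 and 130 FPKM in the growing pair), the DNA end-joining gene Nhej1 (110 and 50.4), the DNA glycosylase gene Neil3 (106 and 51.9) and the chromatin remodelling gene Smarca2 (123 and 60.3) were lower as well. Pgp, phosphoglycolate phosphatase, was higher at 61.5 and 135 FPKM, with 41.3 and 48.3 in fully grown oocytes.

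Transcript GC content moved with the change. In the fifth of genes with the lowest GC content 9 were higher and 57 lower, and in the fifth with the highest 119 were higher and 18 lower. The median change went from -0.06 to 0.31 from the lowest to the highest, and from -0.13 to 0.25 in the fully grown pair. Spearman's rho across genes, which are not independent replicates, was 0.36 for GC content and -0.15 for transcript length, and the points share both libraries. After both trends were removed 152 genes were higher and 176 lower. Gsc (0.84), Rpl34 (0.97), Taf1c (0.95), Snapc4 (0.90), Xbp1 (0.94), Ccnd3 (0.92), Bmpr2 (-0.93), Hist1h1a (0.84), Hist1h1c (0.92), Hist1h4h (0.75), Zfp428 (0.59) and Zfp771 (0.43) were then short of the rule. So were Slc39a8 (-0.84), Slc15a5 (-0.93), Slc16a11 (0.90), Slc25a22 (0.98) and Slc48a1 (0.99). The part of GC content in the result was not tested beyond this.

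**Figure D5:**
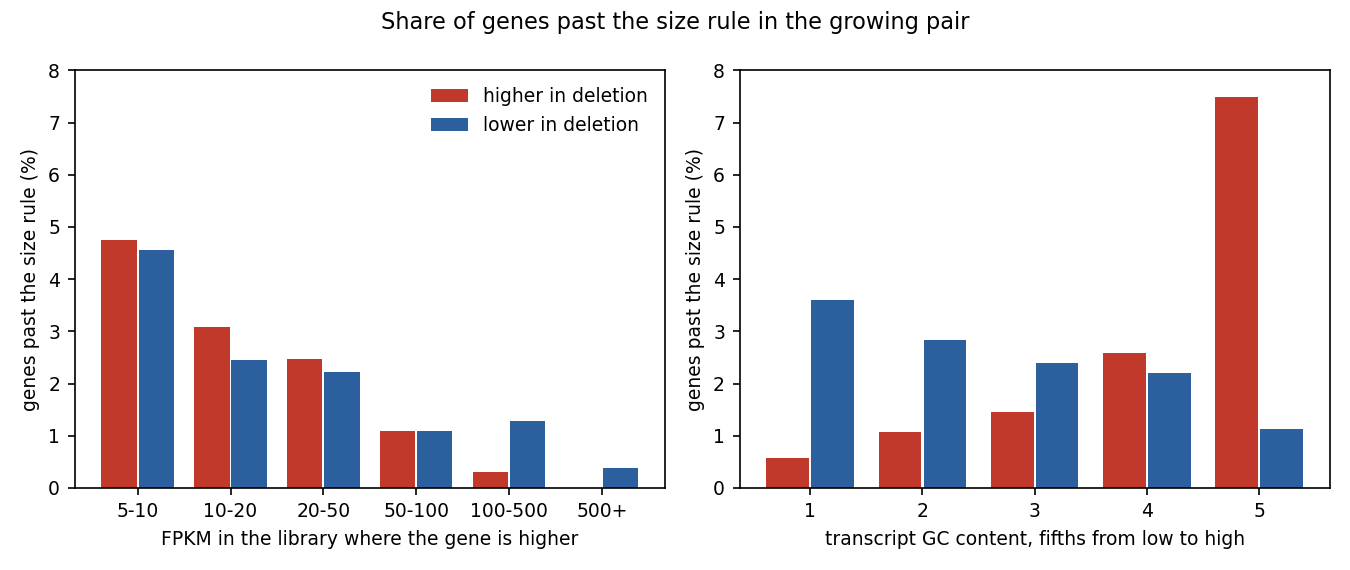
Percentage of genes past the rule of size in the growing pair, by FPKM in the library where the gene is higher (left) and by transcript GC content in 5 equal bins (right), red for higher and blue for lower in the deletion. Calls thin out with rising FPKM, and with rising GC content the higher calls go from 9 to 119 genes while the lower ones go from 57 to 18.

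Markers of other ovarian cells were low. Of 19 granulosa and cumulus genes 4 reached the minimum, and all 4 lay below control. Esr2, oestrogen receptor beta, stood at 28.9 and 13.7 FPKM in growing control and deletion, and at 35.0 and 20.7 in the fully grown pair. Cyp19a1, aromatase, stood at 17.7, 7.75, 19.0 and 16.8 FPKM and Inha, the inhibin alpha chain, at 6.53, 2.16, 2.40 and 4.99, in the same order. These 3 were lower by the rule, which is 75% called of only 4 genes, against 5.13% over all genes. Of the 4, 3 stayed below 20 FPKM in both growing libraries (75%, against 46.5% of all genes). The list summed to 66.2, 32.9, 64.7 and 53.2 FPKM. Among the rest, Nr5a2 was at 5.87 and 4.88 FPKM in the growing libraries, Kitl at 1.42 and 1.03, Fshr at 1.25 and 0.978, and Gja1 at 1.02 and 0.303. Foxl2 was at 0.367 and 0.0871, Amh at 0.213 and 0.0990, and Lhcgr at 0 in all 4. Cyp11a1 went the other way, at 0.416 and 0.691 FPKM, as did Star, Fst and Nr5a1 at lower levels. The part of granulosa RNA in the result was not tested. Markers of theca and stroma summed to at most 1.70 FPKM. Those of blood, immune and endothelial cells summed to 13.7, 16.5, 13.7 and 20.2, most of it from Pecam1, at 11.6 and 12.9 FPKM in the growing pair.

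Short RNA genes at the minimum were few and mostly past the rule. Of 114 small nucleolar and Cajal body RNA genes, 104 were listed at 0 in both growing libraries. A gene listed at 0 in one library that reaches the minimum in the other passes the rule by construction. This held for Scarna3a, Snora30, Snora64 and Snora75, all listed at 0 in growing control. Of 6 small nucleolar and Cajal body RNA genes at the minimum 5 were higher, and of 14 microRNA genes 5 were higher and 4 lower. Scarna3a was at 23.7 FPKM in growing deletion and listed at 0 in the other libraries. Snora30 was listed at 0 in growing control and at 10.1 FPKM in growing deletion, with 18.9 and 27.0 in fully grown oocytes. An FPKM over so short a transcript rests on few reads. Among 766 predicted and clone-named genes 20 were higher and 51 lower, against 210 and 201 of all 8010 genes.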

How the data were processed

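Polyadenylated RNA of 10 oocytes per library was amplified by Smart-seq2 and made into libraries with Tn5 transposase, per the labels' protocols. The deposited values are FPKM, computed by the authors. Tools named in the submitters' processing notes, without roles, were Cufflinks 2.2.1, Bowtie2 2.1.0, TopHat2 2.0.11 and CASAVA 1.8, with build mm9. Not given in the sources used here were the gene models, strand and the handling of reads with several matches, and no read counts or depth are stated. From steps between low values, the growing deletion library was 1.04 times as deep as its control.

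Symbols in byte order were matched to value rows in file order, which moved 19122 of 23235 rows. Changes are differences in log2(FPKM + 1), in which the pseudocount of 1 shrinks the change of low genes. Genes at 5 FPKM or more in either growing library were used, and a change of 1 was the rule of size. Named were Dcaf13, the 15 largest changes per direction at 20 FPKM or more without predicted, clone-named, small RNA genes and pseudogenes, up to 4 members per direction past the rule and the 3 most abundant members of each of 54 lists. Other names are pointed out. Members and lists were chosen with earlier results of these data known. GC content and length of transcripts came from the GENCODE M21 annotation of GRCm38, for 7934 of the 8010 genes. The steps were tested on simulated data, with changes placed only on genes at 20 FPKM or more in growing control. The simulated matching assumed the sort order, so it cannot show that the deposited table has it. Python 3.11.15, numpy 2.4.6, pandas 2.3.3 and matplotlib 3.10.9 were used. Alternatives were pseudocounts of 0.1 and 5, other minimums, rescaling by the median ratio, removal of the GC and length trend, and the deposited pairing.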

Additional observations from a re-analysis of the deposited data

Results flagged for a closer look

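The tubulin gene Tuba3b lay in opposite directions at the stages. Its change was -1.15 in growing oocytes (30.2 FPKM in control and 13.04 in deletion) and 1.39 in fully grown oocytes (19.1 and 51.6 FPKM). Each value rests on 1 library a side, and the difference between the stages was not tested. Reads of Tuba3b may be shared with near-identical tubulin genes.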

How the results depend on the processing

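The counts of called genes depend on the pseudocount and the minimum. Higher genes numbered 210 as reported, 57 with a pseudocount of 5, 370 with no minimum and also with a minimum of 1 FPKM, 118 with 10 FPKM and 63 with 20 FPKM. Lower genes numbered 201 as reported, and 66, 330, 330, 113 and 69 in the same order. A minimum changes these counts by its own construction. A pseudocount of 0.1, rescaling and removal of the GC and length trend kept both counts within 1.5 times. The change of Dcaf13 ran from -1.37 (rescaled) to -1.06 (without the trend) and was past the rule throughout. Of 82 named genes past the rule, all stayed past it with a pseudocount of 0.1, 44 with a pseudocount of 5, 74 after rescaling and 65 without the trend, none with a changed direction. Rescaling by the median ratio of 1.06 took Acat2 (0.98), Hist1h1a (0.93), Hist1h1c (0.99), Hist1h4h (0.97), Snapc4 (0.97), Tdrd7 (0.99), Tm7sf2 (0.93) and Xbp1 (0.94) below it. Of 48 list medians 22 changed sign in some setting, in 9 lists after rescaling, 6 without the trend, 7 at a minimum of 20 FPKM and 8 with the deposited pairing. Most were near 0 as reported, and only 3 were above 0.18: RNA polymerase I factors (-0.11) and the p53 list (-0.14) at 20 FPKM, and the p53 list (-0.0605) and replication-dependent histones (-0.0157) with the deposited pairing. The cause was not tested. No paired analysis was possible because each group consisted of 1 library, and an additive model over all 4 libraries was not run. Without read counts, no interval can be given for any value.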
